A study of Homo sapiens with 2 samples.

Results

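PFN1, TMSB10, TPM4 and WIPF1 are 4 genes whose products control actin filaments. They were taken by symbol from the 2046 genes of a deposited table that compares messenger RNA of wild-type cells of the human triple-negative breast cancer line MDA-MB-231 (genotype label TAMER+/+) with a knockout of the same line (TAMER-/-). The series design names the gene knocked out as TMEM25. Fetal bovine serum in DMEM was the medium of both cultures, while the sources used here do not give how the knockout was made or whether it is a single clone. Among the listed genes the highest value of the knockout library belonged to TFF1, an estrogen-responsive marker of luminal breast cells, at 5920 against 0.94 in the wild-type library. That value stands beside a triple-negative label, and the identity of the cells of either library was not tested. Below, "the knockout library" means the library labelled as such. There was 1 library per genotype, so no difference below has a replicate check, no test was made, and "higher" describes these libraries only. Every gene of the table had a knockout value of at least 1 and at least 2 times the wild-type value, so the members had to be higher in the knockout library. The members were chosen by these same knockout and wild-type values, so their direction and size are given as a description.

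Actin exists as single molecules and as filaments, and cells move by turning one into the other at their leading edge. Profilin, the product of PFN1, binds single actin molecules and hands them to growing filament ends, whereas thymosin beta-10, the product of TMSB10, holds single molecules back from the filament. Tropomyosins such as TPM4 lie along finished filaments and set which myosins and severing proteins reach them. WIPF1 encodes WIP, which binds and stabilises WASP and N-WASP, the proteins that switch on branching through the Arp2/3 complex.

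The table gives 2 measures for each gene in each library. The expression value is scaled by the authors for gene length and library depth, so that levels of different genes can be compared, and its unit is not named. The read count is the number of reads assigned to the gene. Over the 2046 genes the reads came to 4138956 (knockout) and 1046999 (wild type), which is part of each library, so that its full depth is not known here. The read-count fold used below is the ratio of counts divided by 1.155, the knockout to wild-type ratio of reads per unit of expression value, and its 95% interval is exact and covers counting error only. The direction of each difference follows the column names of the values, counts and ratios, since those of the deposited log2 columns are crossed in 2046 of 2046 genes.

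All 4 members reached 2-fold on the log2(value + 1) scale, as did 80.6% of the genes in the table. All 4 also had a counting interval wholly above 2, as did 76.5% of the genes, and 3 of the 4 reached 4-fold on that log2 scale, as did 21.3%. Since the members were chosen on this contrast, nothing is read from these counts. Their sizes lay far apart. The abundant monomer-binding genes PFN1 and TMSB10 were 2.32 and 4.98 times higher by read count. TPM4 was 155 times higher, and WIPF1 had no wild-type read. In RNA of whole cultures, fewer cells that make a message and less of it per cell cannot be told apart. The median log2 ratio of the 4 was 3.10, or 3.14 with 3 reads in place of the 0 of WIPF1, beside 1.33 over all listed genes.

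**Figure D1:**
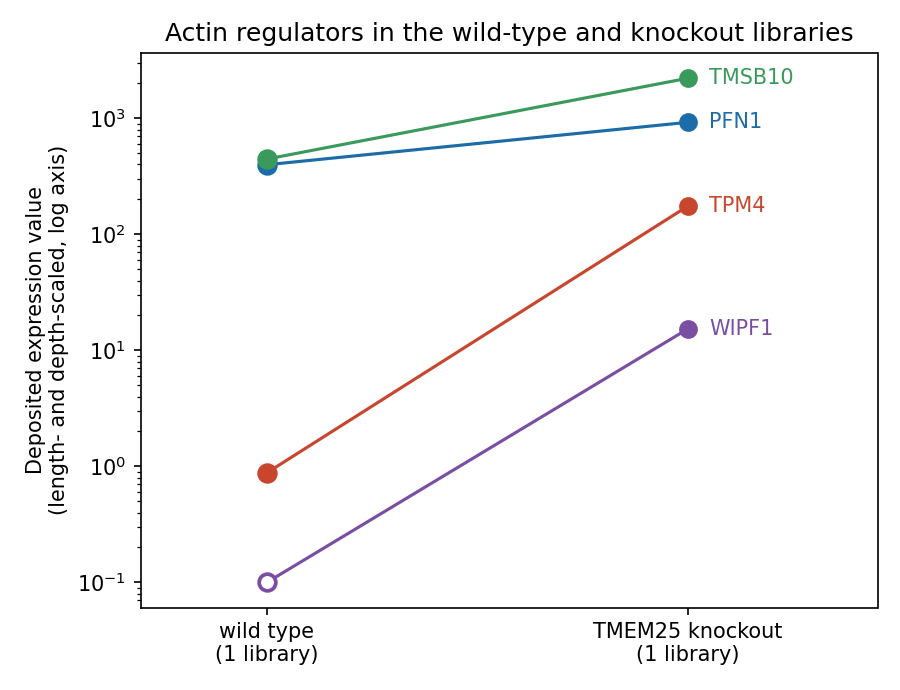
Deposited expression value (vertical log axis) of the 4 genes in the wild-type and the knockout library, 1 point per library, with no error bars because there is 1 library per genotype. TMSB10 and PFN1 lie close together in the wild-type library (445 and 398) and apart in the knockout library (2216 and 924), while TPM4 goes from 0.88 to 175. The open point is WIPF1, whose wild-type count of 0 was deposited as 0.1.

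PFN1 had an expression value of 398 in the wild-type library and 924 in the knockout library, from 8629 and 23122 reads. It was among the most abundant genes of the table in both, at rank 8 in the wild-type library and rank 12 in the knockout library. Counted in reads it was 2.32 times higher, with an interval of 2.26 to 2.38. PFN1 lay near the lower limit of the table by deposited ratio, at rank 1627 of 2046, and at rank 1192 by log2(value + 1) ratio. On the log2(value + 1) scale its ratio was 1.21, which turns to -0.11 when ratios are centred on the median of the listed genes. That centring subtracts 1.33, the median of a table that holds higher genes only.

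PFN1 occupies chromosome 17 from 4945652 to 4949061 on the minus strand (GENCODE 29, GRCh38). GENCODE names 10 PFN1 pseudogenes, so its count depends on how reads shared with them were assigned, and none of the 10 was in the table. The gene also overlaps ENO3 on the opposite strand. Whether counting used strand is not given in the sources used here, so reads of an overlapping pair cannot be told apart.

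TMSB10 had the larger difference of the monomer-binding pair. Its value was 445 in the wild-type library and 2216 in the knockout library, where it ranked 5 among all 2046 genes. The reads, 3229 and 18571, gave a fold of 4.98, with limits of 4.80 and 5.17. The log2(value + 1) ratio was 2.31, which stays above the median of the listed genes by 0.99. TMSB10 is a short gene with 1 annotated transcript of 496 bases, on the plus strand of chromosome 2 from 84905625 to 84906675, and GENCODE names 2 pseudogenes of it. It overlaps TRABD2A on the opposite strand, with the same limit on telling reads apart.

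The balance between thymosin beta-10 and profilin messages differed between the libraries. In the wild-type library the TMSB10 value was 1.12 times the PFN1 value, and in the knockout library it was 2.40 times. The ratio of these ratios, taken from read counts, was 2.15 with an exact conditional counting interval of 2.05 to 2.25. Gene length and library depth cancel in this number, so it does not rest on the scaling of the libraries. It describes TMSB10 RNA relative to PFN1 RNA in these 2 libraries, and not all messages of proteins that hold actin molecules back or deliver them. TMSB4X, another thymosin gene, was not in the table, so its level is not known here. PFN2, another profilin, was also listed, at 105 against 26.6, from 3789 and 816 reads and thus 4.02-fold by reads (3.73 to 4.34). In both libraries its value was well under that of PFN1.

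The sequence upstream of TMSB10 is shown beside those of TPM4 and WIPF1, because these are the 3 members with the largest differences. Promoter sequences are those of RefSeq on GRCh38.p14, which held entries for all 4 members, and only the part of the 250 bases before the start that carries no GENCODE exon is printed. For PFN1 no such base remained, since an annotated transcript covers the whole window, and it is not shown. Capitals mark a CArG box, the site of serum response factor, a regulator of many actin genes. The sequences, read 5′ to 3′ on the strand of the gene, come from chr2:84905406-84905624 (plus strand) for TMSB10, chr19:16067307-16067506 (plus) for the first of 3 TPM4 starts, and chr2:174682917-174683163 (minus) for the first of 4 WIPF1 starts.
TMSB10: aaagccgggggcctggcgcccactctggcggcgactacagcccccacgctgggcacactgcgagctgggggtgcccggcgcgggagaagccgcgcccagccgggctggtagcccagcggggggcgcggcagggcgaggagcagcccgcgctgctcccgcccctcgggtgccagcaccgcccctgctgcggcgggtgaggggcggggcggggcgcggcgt
TPM4: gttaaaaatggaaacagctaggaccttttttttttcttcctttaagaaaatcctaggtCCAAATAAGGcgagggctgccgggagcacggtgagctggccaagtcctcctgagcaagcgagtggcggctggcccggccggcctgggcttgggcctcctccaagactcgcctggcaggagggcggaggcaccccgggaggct
WIPF1: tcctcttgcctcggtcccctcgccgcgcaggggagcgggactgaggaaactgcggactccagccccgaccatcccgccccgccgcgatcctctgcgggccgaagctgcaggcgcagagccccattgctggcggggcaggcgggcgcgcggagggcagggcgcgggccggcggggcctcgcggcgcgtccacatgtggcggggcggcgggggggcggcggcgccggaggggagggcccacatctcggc

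The 9 promoter windows of the 4 members were searched on both strands over the full 250 bases. A CArG box was found in 1 of them, CCAAATAAGG at chr19:16067365-16067374, which runs from 173 to 164 bases before the first TPM4 start. Of all 35116 promoter windows 1.16% held this box, and of the 2501 windows of listed genes 1.32% did. The STAT site TTCNNNGAA, searched because the series title names STAT3, was in 0 of the 9 windows, beside 6.57% of all windows. The 9 windows are few and not separate, since the first 2 WIPF1 windows overlap, so nothing is read from either count. A match or its absence describes the letters in these windows only. The windows also differed in base composition, as G and C made up 78.0% of the TMSB10 window and 78.8% of the first WIPF1 window, against 61.2% for the first TPM4 window and 58.0% for PFN1. At other starts the order was not the same, with 74.4% and 75.6% at the other 2 TPM4 starts and 51.6% and 36.0% at the last 2 WIPF1 starts. The median was 58.0% over all windows and 64.8% over those of listed genes.

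TPM4, a tropomyosin gene whose longest annotated coding sequence is 852 bases, had few wild-type reads. Its wild-type value was 0.88, from 44.31 reads, and its knockout value 175, from 7928 reads. By reads it was 155 times higher, with limits of 116 and 215. By log2(value + 1) ratio, 6.55, it ranked 8 of 2046, and by deposited ratio it ranked 40. Its level moved from rank 1411 in the wild-type library to rank 133 in the knockout library. The TPM4 message stood at 0.00221 of the PFN1 value in the wild-type library and at 0.190 of it in the knockout library. By these values the relation was 85.9 times higher in the knockout library. From read counts it was 67.2 times higher (counting interval 50.0 to 92.7), again without any scaling of the libraries. The reads per unit of value of TPM4 differed between the libraries, as given below. In the plot of knockout against wild-type values TPM4 stands far above the band in which PFN1, TMSB10 and most listed actin genes lie.

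**Figure D2:**
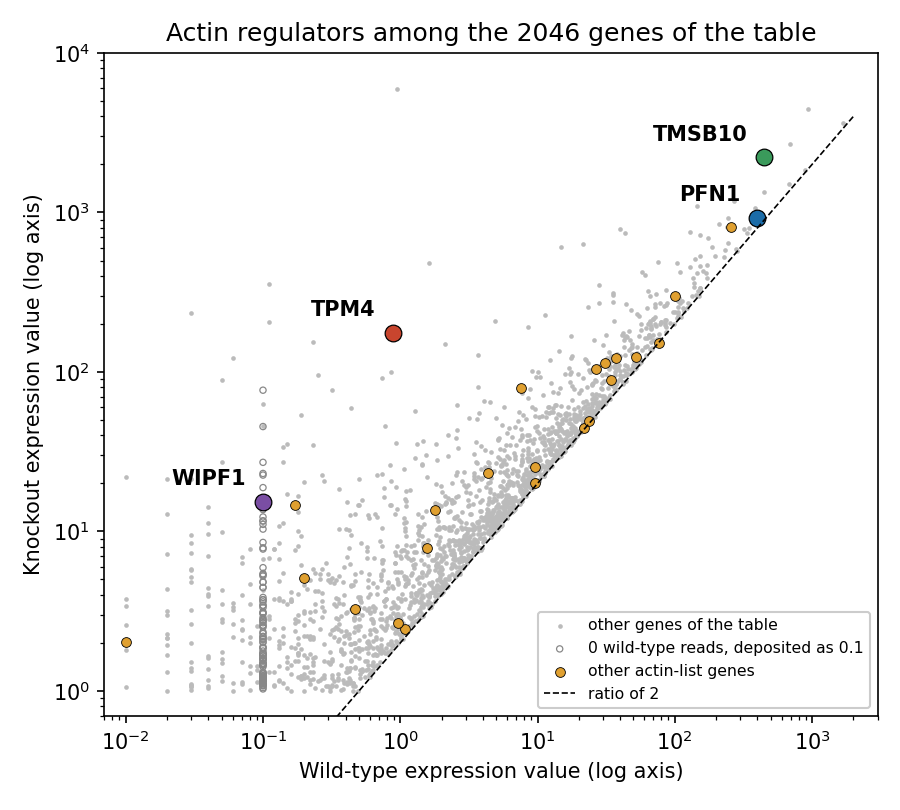
Knockout against wild-type expression value (both log axes) of all 2046 genes, with the 4 members in colour, the 22 other actin-list genes in orange and the dashed line at a ratio of 2, the lower limit of the table. PFN1 (398 and 924) lies near the line, TPM4 (0.88 and 175) lies far above it, and WIPF1 lies in the column of genes with 0 wild-type reads.

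The expression values and the read counts of TPM4 did not give the same fold. Per the authors' deposited table the ratio was 199, which is 1.29 times the read-count fold. Each unit of value stood for 45.2 knockout reads but 50.4 wild-type reads, a ratio of 0.897, whereas that ratio was 1.154 for PFN1 and 1.156 for TMSB10. Of 459 genes with 20 to 99 wild-type reads, 16 (3.49%) had a ratio at or below that of TPM4, and their median was 1.155. TPM4 has 14 protein-coding transcripts of 367 to 2666 bases in GENCODE 29, on the plus strand of chromosome 19 from 16067021 to 16103005, and shares sequence with the other tropomyosin genes. GENCODE names 1 TPM4 pseudogene, and the gene overlaps AC008894.3 on the opposite strand, with the same limit on telling reads apart. How the values allow for transcripts of different length is not given in the sources used here, and whether the libraries differ in TPM4 transcripts was not tested.

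**Figure D3:**
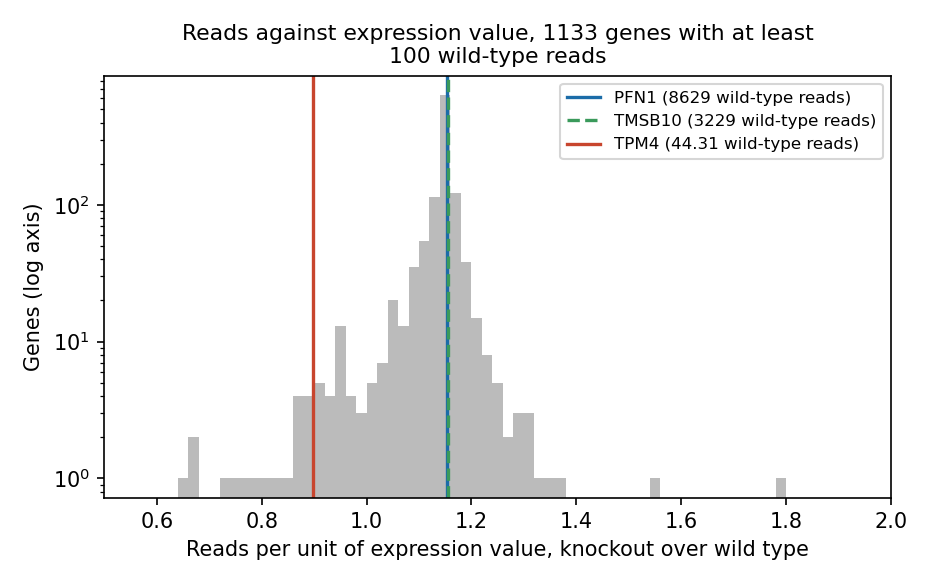
Histogram of the ratio, knockout over wild type, of reads per unit of expression value (horizontal axis) over the 1133 genes that had 100 or more wild-type reads, with the number of genes on a log axis. The lines for PFN1 (1.154) and TMSB10 (1.156) lie on the peak, and that for TPM4 (0.897), which rests on 44.31 wild-type reads, lies in its left tail.

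WIPF1 had 1331 reads and a value of 15.3 in the knockout library and 0 reads in the wild-type library. With the floor of 3 reads in place of the 0, the fold was 384, and the exact 95% counting interval, which starts lower, puts the knockout level at least 312-fold higher. The ratio in the authors' deposited table was 153, because the authors set a value of 0.1 where a wild-type count was 0. At the reads per unit that WIPF1 had, a value of 0.1 would be worth 7.51 wild-type reads, and 3 reads would be a value of 0.0399. The deposited ratio therefore lies below what the reads allow. Of the listed genes 100 (4.89%) had 0 wild-type reads, and 5 of these, WIPF1 included, had at least as many knockout reads as WIPF1. WIPF1 occupies chromosome 2 from 174559572 to 174682916 (minus strand), with 9 protein-coding transcripts of 373 to 4587 bases, and overlaps 2 annotated antisense genes that are not in the table.

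By level per unit length the order in the knockout library was TMSB10, PFN1, TPM4 and WIPF1, and it was the same in the wild-type library. In the knockout library TMSB10 was 2.40 times PFN1, PFN1 5.27 times TPM4, and TPM4 11.4 times WIPF1. In the wild-type library the first of these steps was 1.12 and the second 452. The spread between replicates is not known for any of these steps.

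Other genes came near the members in the values of both libraries, measured as the distance between log2(value + 1) pairs over the 2 libraries. Near to PFN1 were RPL39 at a distance of 0.22 and RPL36A at 0.27, which both encode proteins of the ribosome. TMSB10 had no gene as close, with GNAS at 0.70 and NME2 at 0.72. The nearest to TPM4 were CSTA at 0.64, SYTL2 at 0.77 and SULF2 at 0.79. For WIPF1 they were TNFRSF11B, LPIN2 and MAOB at 0.02, 0.05 and 0.06, all with 0 wild-type reads and the same substituted value of 0.1. With 2 libraries such likeness is a matter of level and ratio only.

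The members were set beside 12 lists of actin genes by role, 175 genes in all. Of these, 26 (14.9%) were in the table, beside 10.4% of protein-coding genes, and the other 149 were not analysed here. The 4 members are in the table by choice, and without them 22 of 171 were in it. On the log2(value + 1) scale 21 of the 26 reached 2-fold, beside 80.6% of all listed genes, but 4 of the 26 are the members, chosen on these values. Without them, 17 of 22 reached 2-fold, and the median log2 ratio was 1.58, against 1.33 over all listed genes, with 14 of the 22 above that median. Counting intervals lay wholly above 2 for 16 of the 22, beside 76.5% of the table, and 5 of the 22 reached 4-fold, beside 21.3%. A deposited ratio of at least 100 was held by 1 of the 22, WASF3, which had 1 wild-type read, beside 3.67% of the table. The actin genes themselves gave 0 of 6, and serum response factor with its cofactors 0 of 3.

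Genes of branched filament assembly were listed beside WIPF1. WASF3, a WAVE protein that activates the Arp2/3 complex, was at 2.04 against 0.01 from 184 and 1 reads, so that its fold by reads, 159, could lie anywhere from 28.2 to 6324. It was the other of 2 genes listed among 24 of the WASP and WAVE group, and the WASP partners of WIPF1, WAS and WASL, were not in the table. Of 15 genes of the Arp2/3 complex and its partners 3 were listed, all subunits. ARPC1B had values of 122 and 37.4 (3.22-fold by reads, 2.99 to 3.46), and its alternative ARPC1A had 125 and 51.8 (2.42-fold, 2.27 to 2.57). ACTR3, the Arp3 subunit, was at 49.5 against 23.8 and 2.08-fold by reads, whose interval of 1.98 to 2.18 includes 2.

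Of the genes acting on the same filaments as TPM4, 2 of 16 others in the coating group were listed, both tropomodulins, which cap the slow-growing end of tropomyosin-coated filaments. TMOD3 was at 44.4 against 21.8 and TMOD1 at 2.46 against 1.08, both short of 2-fold on the log2(value + 1) scale and with read-count intervals that include 2. The other tropomyosins TPM1, TPM2 and TPM3 were not in the table. Non-muscle myosin II, the motor whose access tropomyosin governs, gave 3 of 12, with log2 ratios of 1.32 to 1.67. Its light chains MYL12B and MYL12A were at 813 against 255 and 300 against 100, and as near-identical copies they may share reads, and the heavy chain MYH14 was at 25.2 against 9.51.

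Elongating factors and crosslinkers made up the largest groups of listed genes. Among formins, Ena/VASP proteins and other nucleators 5 of 20 were listed and 4 reached 2-fold on the log2(value + 1) scale. EVL, an Ena/VASP protein that recruits profilin-bound actin, had values of 79.2 and 7.52 (9.79-fold by reads, 8.68 to 11.1). Its relative VASP had 89.4 and 34.5 (2.60-fold, 2.43 to 2.77). SPIRE1, a nucleator, was at 23.4 against 4.35, and the formins FMNL2 and INF2 at 3.28 against 0.47 and 20.3 against 9.66. INF2 was just short of 2-fold on the log2(value + 1) scale and 2.13-fold by reads (1.94 to 2.33). Crosslinkers and bundlers gave 4 of 21, all at least 2-fold on the log2(value + 1) scale, as were 80.6% of all listed genes. MARCKS, which binds filaments and membrane, had 14.6 and 0.17 (84.8-fold by reads, 48.4 to 165). The filamin FLNA was at 114 against 30.9, the plastin LCP1 at 13.7 against 1.79, and the fascin FSCN1, a bundler of filopodia, at 7.84 against 1.56. In the capping and severing group CAPZA1 and AVIL (2 of 13) were both short of 2-fold, and of the cofilin and disassembly group only the coronin CORO1A (1 of 20) was listed, at 5.09 against 0.20 from 163 and 6 reads.

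**Figure D4:**
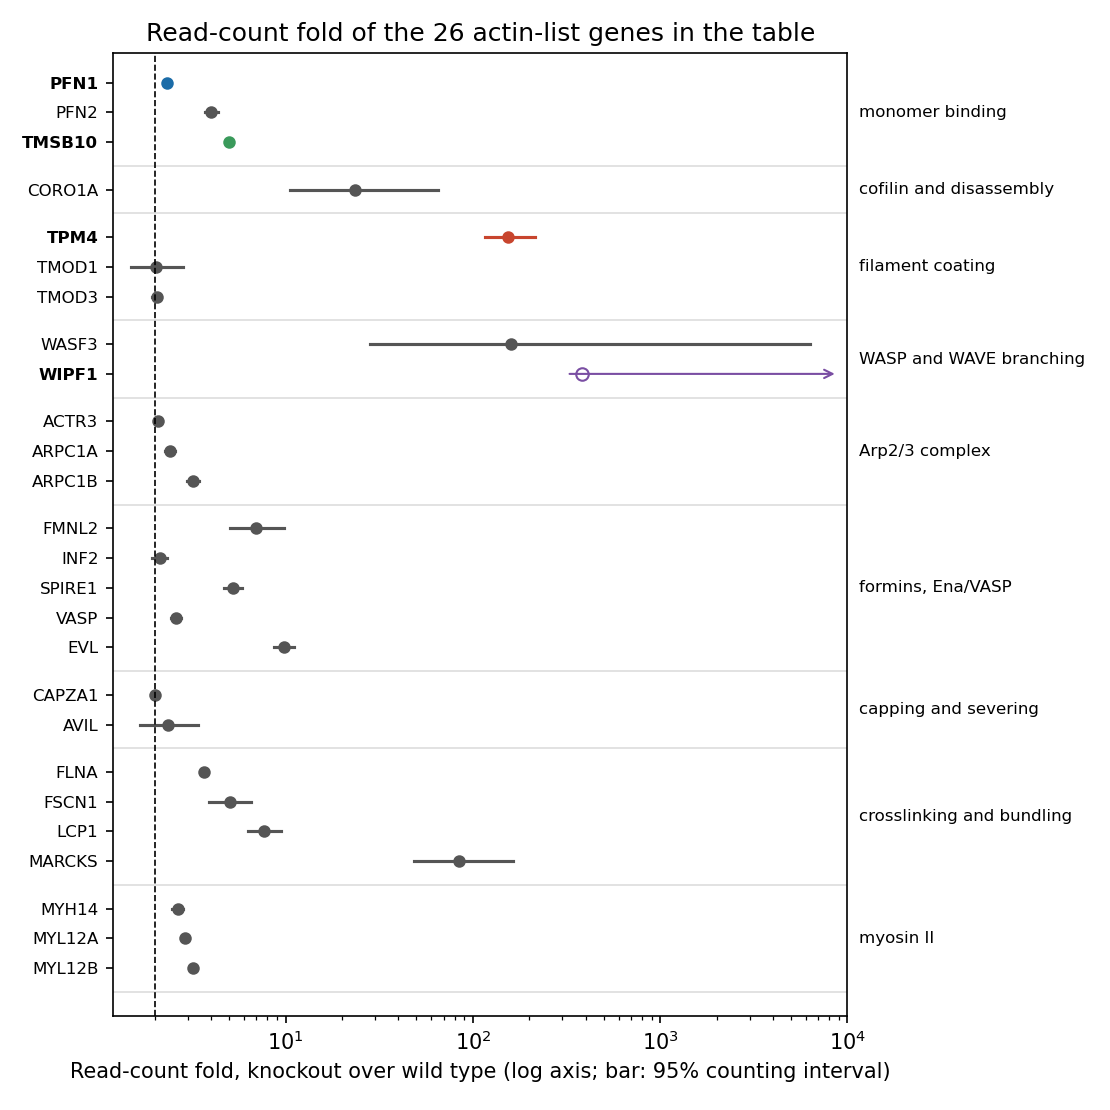
Read-count fold, knockout over wild type (horizontal log axis), of the 26 actin-list genes in the table, by role, with 95% counting intervals as bars and the dashed line at 2. TPM4 (155), WIPF1 (open point, 384 with 3 reads in place of its 0, and an interval from 312 that is open to the right), WASF3 (159) and MARCKS (84.8) lie far to the right, and PFN1 (2.32) lies near the line.

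Markers of other cell types stood beside these values, and their part in the results was not tested. Luminal breast markers gave 3 of 12, with a summed value of 6468 against 150 in the wild-type library, of which TFF1 made up 5920 and 0.94. The other 2 were EPCAM (420 against 146) and TFF3 (128 against 3.68), while the remaining 9, ESR1 and GATA3 among them, were not in the table. Leukocyte markers gave 2 of 10, LCP1 and CORO1A, both of which are also on the actin lists, summing to 18.7 against 1.99, whereas PTPRC, which marks all leukocytes, was not in the table. Smooth muscle markers gave 1 of 8 (SYNPO2, 9.38 against 0.19), endothelial markers 1 of 8 (EMCN, 4.73 against 0.33), and fibroblast markers and skeletal and cardiac muscle markers 0 of 8 each. Of all protein-coding genes 10.4% were in the table, and lists of 8 to 12 genes are too short for these counts to be read. None of the listed markers had 0 wild-type reads. All 10 markers of mesenchymal breast cancer lines, VIM and CD44 among them, were absent from the table. The table holds only genes at least 2 times higher in the knockout library, so the level of these markers is not known here. TMEM25 was not in the table either, so TMEM25 RNA gives no check of the genotype here.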

How the data were processed

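The members and lists were chosen with earlier results of these data known. Messenger RNA of 2 libraries, 1 per genotype, was analysed. Per the submitters' processing notes, the genome build was GRCh38.p12 and the tools included HISAT2 2.0.4 and CASAVA 1.4. How reads were counted is not given in the sources used here. Expression values were deposited by the authors, and serve here as a signal scaled for length and depth. The read counts the authors deposited were treated like expected counts because 43.7% (knockout) and 40.7% (wild type) are not whole, and they were rounded for intervals. The deposited ratio is the knockout over the wild-type value in 2046 of 2046 genes, and the deposited log2 columns were not used. The number of per-sample columns not matched to a sample was 0.

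The log2 ratio was log2((knockout + 1) / (wild type + 1)), with a minimum value of 1 in one library or the other, called 2-fold higher at 1 or more. Read-count folds were scaled by 1.155, the median of the 1133 genes that had 100 or more wild-type reads, with exact 95% conditional binomial intervals (SciPy 1.17.1) and a floor of 3 reads for a 0. Intervals and the floor cover counting error only, since without molecular identifiers a read is not a molecule. Ratios between members used the conditional odds ratio. The script was tested on simulated data. Genes were matched by Entrez number, and annotation is GENCODE 29. Genes named are the 4 members, all listed genes of the actin and marker lists, and the 3 nearest genes of each member, except a few items that are not reported here. Genes named as not in the table were chosen after the table was seen. The settings tried were other pseudocounts, filters, scalings and call rules.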

Additional observations from a re-analysis of the deposited data

How the results depend on the processing

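The count of 4 members at least 2-fold higher was 2 when ratios were centred on the median of the listed genes, where PFN1 was at -0.11 and TMSB10 at 0.99, and 3 under a 4-fold rule. It was 4 under the other 7 alternatives. Of all listed genes, centring called 13.6%, the 4-fold rule 21.3%, and the other 7 alternatives from 41.3% to 100%. The members were chosen on this contrast, so these counts are no check of them. Of the 26 actin-list genes, 21 reached 2-fold, against 6 with centring and 8 under the 4-fold rule, both by construction. The number was 16 to 26 under the other 7. Rules that called a larger share of all listed genes also called more of these genes, or all of them. Without scaling, the read-count fold of PFN1 was 2.68 and that of TMSB10 5.75. The fold of WIPF1 was 153 from the deposited values, which rest on the value of 0.1 substituted for its 0 reads. Depth limits TPM4, with 44.31 wild-type reads, and WIPF1, with 0. No paired analysis was possible because each genotype had 1 library, and no library could be left out.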

Other observations

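The chromosomal neighbours of the members were counted as a further description. Of 78 protein-coding genes within 500 kb of the 4 members, 13 (16.7%) were in the table, beside 10.4% of all 19292 protein-coding genes with an Entrez number. By member these were 5 of 38 around PFN1, 1 of 9 around TMSB10, 4 of 22 around TPM4 and 3 of 9 around WIPF1. Chromosome-wide shares were 8.10% for chromosome 17, 17.0% for chromosome 2 and 12.5% for chromosome 19. The 4 listed neighbours of TPM4 were CYP4F11 (6.19 against 0.19), HSH2D (14.6 against 0.84), CIB3 (2.92 against 0.27) and KLF2 (2.41 against 0.49). Of the 3 listed neighbours of WIPF1, CHN1, a GTPase-activating protein for Rac, was at 14.7 against 0.49, and OLA1 and ATP5MC3 had deposited ratios of 2.51 and 2.19. The largest deposited ratio of the 13, 34.3, was that of SMTNL2 near PFN1, at 3.43 against the 0.1 substituted for 0 wild-type reads. ALOX15, VMO1, GLTPD2 and PSMB6, also near PFN1, had deposited ratios of 2.13 to 3.79, and KCMF1 near TMSB10 had 2.44. These neighbours were named after their values were seen.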
